A study of Rattus norvegicus with 4 samples.

Results

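Chemokines and inflammatory cytokines of glia were followed on 4 arrays of rat astrocytes cultured with or without mouse neurons. The genes were Ccl2, Ccl7, Ccl20, Ccl5, Cxcl1, Cxcl2, Cxcl10, Cxcl12, Cx3cl1 and Il6, and a probe was taken as theirs when its gene name or its RefSeq transcript was that of the gene. This gave 13 of the 41012 probes of the array, with at least 1 probe for each of the 10 genes. Of the 10 genes, 9 had a probe that passed the filter on dim signal and were tested, among 21310 genes in all.

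Chemokines are small secreted proteins that steer the movement of cells through receptors coupled to G proteins. They are named for the spacing of conserved cysteines, which gives the CC, CXC and CX3C families. Astrocytes and microglia release many of them, together with the cytokine interleukin-6, when they sense injury or microbial products, and transcription of several of these genes is known to depend on NF-kappaB, a transcription factor that inflammatory signals release into the nucleus. Cxcl12 and Cx3cl1 stand apart, since both are also made in healthy brain, where Cxcl12 guides migrating cells and Cx3cl1, made largely by neurons, signals to microglia.

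The astrocytes were primary cells from the cortex of Wistar rat pups at postnatal day 1, and the neurons came from the hippocampus of mouse embryos at embryonic day 18. Neurons and astrocytes grown together gave the co-culture (CC). Co-culture that was rinsed with a stream of ice-cold buffer, the cold jet, which detaches neurons, gave CC-CJ. Astrocytes that never met neurons but received the same cold jet gave AA-CJ, so that AA-CJ and CC-CJ shared the jet and CC did not have it. Every array carried CC-CJ in Cy3. Its partner in Cy5 was AA-CJ on 2 arrays and CC on the other two. Without a dye swap, a dye effect cannot be told apart from a difference between CC-CJ and its partner. The partners shared Cy5, so that CC versus AA-CJ compared RNAs in 1 dye. According to the methods, replicates came from different pools of animals, and the age of the cultures on the arrays was not given in the sources used here. The probes were designed for rat, and how much mouse RNA they bound was not tested. As whole cultures were read, fewer cells of a type and less RNA per cell cannot be told apart.

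All 4 arrays lay on 1 slide. The share of probes well above background ranged from 50.1% to 62.6% per channel, and the number of arrays limits the precision. All 8 astrocyte markers listed, Gfap and Aqp4 among them, were well above background in every RNA. The CC-CJ signals of arrays with the same replicate number lay closer together than those of different numbers: over all genes tested, the median absolute log2 difference was 0.0668 and 0.0775 within a number and 0.0932 and 0.101 between numbers. Whether 1 CC-CJ extract of each number was hybridized on both kinds of array is not given in the sources used here.

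Of the 10 genes, 8 were well above background on every array in every RNA, including astrocytes that had never been with neurons: Ccl2, Ccl7, Ccl20, Cxcl1, Cxcl10, Cxcl12, Cx3cl1 and Il6. Ccl5 was well above background in both CC samples, on 1 of 4 CC-CJ arrays and in 1 of 2 AA-CJ samples. Cxcl2 passed in neither CC sample, on 1 of 4 CC-CJ arrays and in 1 of 2 AA-CJ samples, and was therefore not tested. The genes thus fell into 8 that were measured throughout and a pair near the detection limit.

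In rn4, the build of the scanner files, the Ccl2 probe lay at chr10:70257919-70257978, and the probes of its neighbour Ccl7 at chr10:70268674-70268733 and chr10:70268643-70268702, all on the plus strand. The Ccl5 probe matched a stretch of chr10:71606089-71609018 on the minus strand, which is longer than an oligo of 60 bases, as was the stretch of the Il6 probe at chr4:457279-458563, also on the minus strand. Ccl20 was read at chr9:82443347-82443406 on the plus strand. Cxcl1 and Cxcl2 were read at chr14:18690468-18690527 and chr14:18677236-18677295 on the minus strand, and Cxcl10 at chr14:17267994-17268053 on the plus strand. The Cxcl12 probes lay at chr4:153510217-153510276 and chr4:153516205-153516264 on the plus strand and matched different transcripts of the gene. The Cx3cl1 probes lay at chr19:10667029-10667088 and chr19:10667691-10667750 on the minus strand. Exons and UTRs were not assigned, since the annotation of rn4 was not used here.

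The DNA before the start of these genes was read from RefSeq promoters of the build GRCr8, which held 8 of the 10 genes. Within 250 bases before the annotated start, on either strand, the NF-kappaB consensus matched in 6 of the 8, namely Ccl7, Ccl20, Cxcl1, Cxcl2, Cxcl10 and Il6, and in 6.33% of all 33469 promoters. The motif GAAANNGAAA of the interferon-stimulated response element matched in Cxcl10 alone of the 8 and in 3.41% of all promoters. The AP-1 motif TGANTCA, which is its own reverse complement, matched in Ccl7 and Cxcl10 and in 6.34% of all promoters. Overlapping matches of the NF-kappaB consensus, which its near-palindrome gives on both strands, occurred in Cxcl1, Cxcl2 and Cxcl10. A match describes the letters and is not a measured binding site. The 4 sequences below run 5′ to 3′ up to the base before the start, with motif matches in capitals. Cxcl1 and Ccl20 are shown because their ratios were the largest among these genes, Cxcl10 because it held all 3 motifs, and Cxcl12 as a promoter without any of them.
Cxcl1 (chr14:17479322-17479571, minus strand): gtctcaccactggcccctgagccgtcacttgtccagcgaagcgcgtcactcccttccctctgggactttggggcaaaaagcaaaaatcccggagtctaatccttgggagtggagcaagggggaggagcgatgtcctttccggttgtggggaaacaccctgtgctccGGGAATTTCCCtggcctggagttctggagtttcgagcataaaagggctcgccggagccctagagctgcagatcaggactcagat
Ccl20 (chr9:91836909-91837158, plus strand): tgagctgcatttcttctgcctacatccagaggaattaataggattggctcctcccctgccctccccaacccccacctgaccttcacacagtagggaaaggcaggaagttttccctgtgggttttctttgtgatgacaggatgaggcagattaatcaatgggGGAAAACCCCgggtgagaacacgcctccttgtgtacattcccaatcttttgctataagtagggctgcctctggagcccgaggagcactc
Cxcl10 (chr14:15988816-15989065, plus strand): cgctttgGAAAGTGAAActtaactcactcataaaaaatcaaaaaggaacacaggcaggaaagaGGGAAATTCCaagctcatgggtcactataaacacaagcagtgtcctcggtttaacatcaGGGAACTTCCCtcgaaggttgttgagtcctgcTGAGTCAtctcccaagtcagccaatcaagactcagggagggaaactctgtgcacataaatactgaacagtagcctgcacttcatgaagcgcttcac
Cxcl12 (chr4:152060531-152060780, plus strand): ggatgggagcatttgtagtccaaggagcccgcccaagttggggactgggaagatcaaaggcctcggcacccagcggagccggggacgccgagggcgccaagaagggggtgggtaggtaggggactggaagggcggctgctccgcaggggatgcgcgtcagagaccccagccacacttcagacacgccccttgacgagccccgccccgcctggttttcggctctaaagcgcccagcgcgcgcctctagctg

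**Figure D1:**
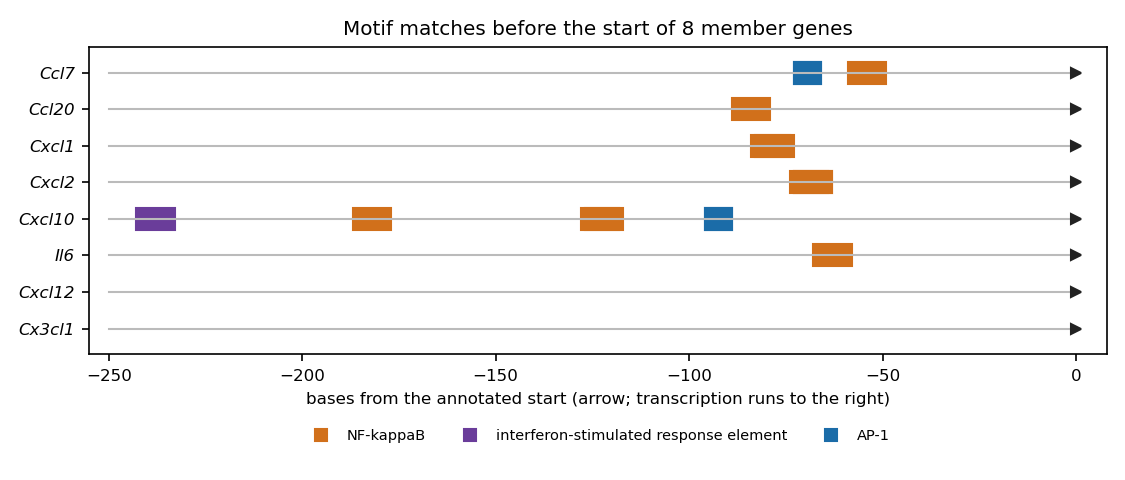
Matches of 3 motifs, as coloured boxes, along the 250 bases before the start of 8 genes, with the distance from the start in bases on the x axis. NF-kappaB matches lie within 89 bases of the start in Ccl7, Ccl20, Cxcl1, Cxcl2 and Il6 and farther upstream in Cxcl10, while Cxcl12 and Cx3cl1 have no match.

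The first comparison, CC-CJ versus AA-CJ, asks which astrocyte mRNAs differ after culture with neurons. At an adjusted p of 0.05 in limma, 0 of the 9 genes were called, against 3.09% of all genes, and 1 of 9, Ccl20, had an unadjusted p under 0.05, against 22.6% of all genes. M, the log2 ratio of CC-CJ over its partner, had a median of -0.12 over the 9 genes and of -0.02 over all genes. It ran from -0.50 for Ccl20 to 0.31 for Cxcl1, and each 95% interval stayed within a 1.85-fold change in either direction. The levels of CC-CJ and AA-CJ did not overlap for 1 of 9 genes, Cxcl1, against 39.4% of all genes.

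The second comparison, CC-CJ versus CC, asks what the cold jet took away. Again 0 of the 9 were called at an adjusted p of 0.05 in limma, against 2.35% of all genes, and Cxcl1 alone had an unadjusted p under 0.05, against 16.9% of all genes. M had a median of 0.12 over the 9 genes and of -0.02 over all genes, and ran from -0.35 for Ccl2 to 0.58 for Cxcl1. The intervals stayed within 1.90-fold in either direction. Levels did not overlap for 5 of 9 genes, Ccl2, Ccl5, Cxcl1, Cxcl12 and Il6, against 32.8% of all genes, with the RNAs in different dyes. Ccl5 counts among the 5 although it passed the filter on dim signal through CC alone.

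The difference between the comparisons, CC versus AA-CJ, set whole co-culture against astrocytes alone in 1 dye. Here too limma called 0 of the 9 genes at an adjusted p of 0.05, against 2.65% of all genes, and 1 of 9, Ccl20, had an unadjusted p under 0.05, against 17.8% of all genes. The log2 ratio of CC over AA-CJ had a median of -0.048 over the 9 genes and of 0.0014 over all genes. The intervals here were wider and reached a 2.35-fold change for Ccl20. Levels did not overlap for 3 of 9 genes, Ccl20, Cxcl1 and Cx3cl1, all lower in CC, against 56.9% of all genes.

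**Figure D2:**
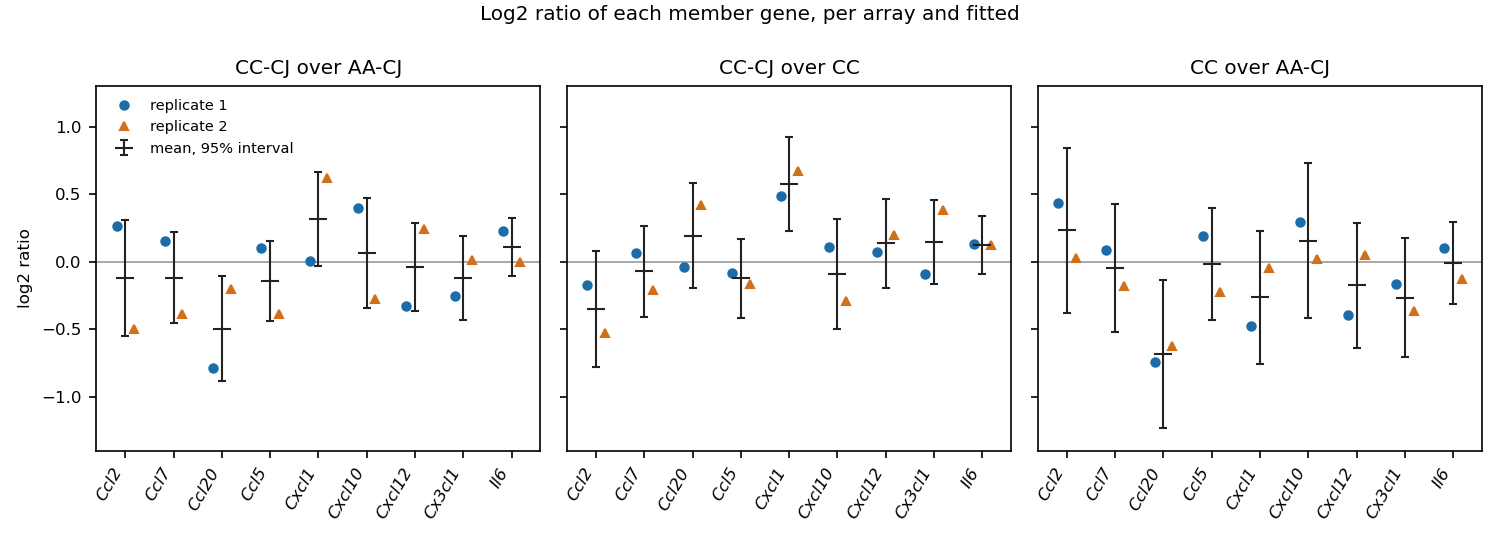
Log2 ratio (y axis) of the 9 genes tested (x axis) in each comparison, with the value on each array (circles, replicate 1; triangles, replicate 2; in the right panel, the difference between arrays of the same number) and the fitted mean with its 95% interval. Before adjustment the interval leaves out 0 for Ccl20 in the left and right panels and for Cxcl1 in the middle one; with median centring in place of loess, the mean of Cxcl1 in the middle panel is -0.53, where the median of all genes is -0.59.

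Ccl2 attracts monocytes through the receptor Ccr2. On the log2 scale of channel intensity, it was at 12.79 and 13.23 in AA-CJ of replicates 1 and 2, and at 13.24 and 13.23 in CC. CC-CJ of replicate 1 gave 13.06 and 13.07 on its 2 arrays, and CC-CJ of replicate 2 gave 12.73 and 12.70. Both CC samples were thus above all CC-CJ values, while AA-CJ had 1 value within the range of CC-CJ and 1 at the level of CC. M was 0.26 and -0.50 against AA-CJ, with a mean of -0.12 (SE 0.18, adjusted p = 0.746). Against CC it was -0.17 and -0.53, with a mean of -0.35 (SE 0.18, adjusted p = 0.381), lower on both arrays. The Ccl2 probe was printed 10 times on each array, and the SD of M over its spots was 0.0207 to 0.0685.

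Ccl7, a monocyte attractant encoded beside Ccl2, was at 12.42 and 12.61 in AA-CJ and at 12.49 and 12.41 in CC. In CC-CJ it was at 12.57 and 12.56 for replicate 1 and at 12.22 and 12.20 for replicate 2. Its replicates split as those of Ccl2 did, with replicate 1 the higher in CC-CJ and the lower in AA-CJ. M was 0.15 and -0.39 against AA-CJ, with a mean of -0.12 (SE 0.14, adjusted p = 0.671), and 0.067 and -0.21 against CC, with a mean of -0.070 (SE 0.14, adjusted p = 0.840). Its 2 probes, which overlap in position, gave means of -0.13 and -0.11 against AA-CJ.

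Ccl20, the ligand of Ccr6, gave the lowest ratio of the set against AA-CJ. It was at 8.55 and 8.06 in AA-CJ, and at 7.91 and 7.65 in CC. CC-CJ of replicate 1 gave 7.77 and 7.87, and CC-CJ of replicate 2 gave 7.86 and 8.07. AA-CJ of replicate 1 was above all other values, and AA-CJ of replicate 2 lay within the range of CC-CJ. M against AA-CJ was -0.78 and -0.21, with a mean of -0.50 (SE 0.16), a level 1.41-fold lower in CC-CJ that did not pass the test (adjusted p = 0.140). CC was 1.61-fold lower than AA-CJ, with a log2 ratio of -0.69 (SE 0.23, adjusted p = 0.196). Leaving out 1 array moved this ratio between -0.40, without replicate 1 of the AA-CJ arrays, and -0.97, without replicate 2 of them, and Agilent's log ratio gave -1.12. Without those arrays M against AA-CJ was -0.21 and -0.78, and with Agilent's log ratio it was -0.75. Against CC, M was -0.041 and 0.42, with a mean of 0.19 (SE 0.16, adjusted p = 0.594).

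Ccl5 attracts T cells and monocytes. Its signal was 6.35 and 6.87 in AA-CJ, 6.50 and 6.59 in CC, 6.45 and 6.42 in CC-CJ of replicate 1, and 6.48 and 6.42 in CC-CJ of replicate 2, close to the floor of the array. M had a mean of -0.14 (SE 0.12) against AA-CJ and of -0.12 (SE 0.12) against CC, with adjusted p of 0.544 and 0.648. On the arrays with CC, where the CC-CJ signal was not well above background, the measured means were 6.54 in CC and 6.42 in CC-CJ. The fit did not call this difference, and since Ccl5 passed the filter through CC alone, nothing is read from its being brighter there.

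Cxcl1 attracts neutrophils through Cxcr2. It was at 9.64 and 9.66 in CC and at 10.11 and 9.78 in AA-CJ. CC-CJ was at 10.12 on both arrays of replicate 1 and at 10.40 and 10.33 in replicate 2. All 4 CC-CJ values were above both CC values and, by a narrow margin for replicate 1, both AA-CJ values. M against CC was 0.48 and 0.67, with a mean of 0.58 (SE 0.15), which is 1.49-fold with a 95% interval from 1.17 to 1.90. With an adjusted p of 0.123 in limma it did not pass, and 4.89% of all genes had a lower p. The fit pools the spread of all 4 arrays. M of Cxcl1 differed by 0.610 between the arrays with AA-CJ and by 0.184 between those with CC, and the SE of 0.15 holds both. The study selected by an M beyond 2 SD of all probes on both arrays. Here this rule was applied to the loess M in place of the study's own normalized values. The study's exclusion of genes higher against AA-CJ but strongly lower against CC was kept, and its check that replicate probes agree was not. The rule selected Cxcl1 as higher in CC-CJ versus CC and no other of the 10 genes in either comparison. It selected 1.45% of all probes for CC-CJ versus AA-CJ and 1.39% for CC-CJ versus CC.

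The call of Cxcl1 in CC-CJ versus CC turned with the processing and with the arrays in the fit. The authors' processed values gave a mean of 0.76 with an adjusted p of 0.0174 in limma, and a fit on the 2 arrays of the comparison alone gave 0.58 with an adjusted p of 0.0226. With the arrays centred on their median in place of loess, the ratio was -0.53, in a fit where the median of all genes was -0.59. Without replicate 2 of this comparison the adjusted p was 0.710, and without replicate 1 it was 0.144. Against AA-CJ, M was 0.0073 and 0.62, so that replicate 2 alone carried the mean of 0.31 (SE 0.15, adjusted p = 0.265). The log2 ratio of CC over AA-CJ was -0.26 (SE 0.21, adjusted p = 0.553), while Cy3 exceeded Cy5 at this probe on all 4 arrays after loess.

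Cxcl2, a close relative of Cxcl1 that also acts on Cxcr2, gave 6.40 and 6.47 in AA-CJ, 6.27 and 6.10 in CC, 6.14 and 6.18 in CC-CJ of replicate 1, and 6.11 and 6.68 in CC-CJ of replicate 2. These signals were mostly not well above background, and no order was read from them. Cxcl10 is an interferon-induced ligand of Cxcr3. It was at 7.07 and 7.45 in AA-CJ, at 7.35 and 7.36 in CC, at 7.47 and 7.46 in CC-CJ of replicate 1 and at 7.17 and 7.07 in CC-CJ of replicate 2. The 2 CC samples were nearly equal and lay between the replicates of CC-CJ. M was 0.40 and -0.27 against AA-CJ and 0.11 and -0.29 against CC, with means of 0.062 and -0.092 (SE 0.17 each, adjusted p of 0.872 and 0.827).

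Cxcl12 binds Cxcr4 and the scavenging receptor Ackr3. It was at 11.72 and 11.29 in AA-CJ, at 11.28 and 11.30 in CC, at 11.39 and 11.36 in CC-CJ of replicate 1 and at 11.54 and 11.50 in CC-CJ of replicate 2. Each level is the mean of 2 probes, which were at 12.86 and 10.58 in AA-CJ of replicate 1. All CC-CJ values were above both CC values, and the AA-CJ values lay on either side of CC-CJ. M was -0.33 and 0.24 against AA-CJ, with a mean of -0.040 (SE 0.14, adjusted p = 0.899), and 0.072 and 0.20 against CC, with a mean of 0.13 (SE 0.14, adjusted p = 0.657). Its 2 probes disagreed against CC, at 0.28 for chr4:153510217-153510276 and -0.0097 for chr4:153516205-153516264, and neither passed the test.

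Cx3cl1, the sole CX3C chemokine, was at 9.29 and 9.23 in AA-CJ, at 8.99 and 8.94 in CC, at 9.03 and 8.90 in CC-CJ of replicate 1 and at 9.24 and 9.32 in CC-CJ of replicate 2. Each level is the mean of 2 probes far apart, at 11.36 and 7.22 in AA-CJ of replicate 1. Both AA-CJ values were above both CC values, and CC-CJ spanned both groups. The log2 ratio of CC over AA-CJ was -0.27 (SE 0.18, adjusted p = 0.500), at -0.27 and -0.26 for its 2 probes. The probes disagreed in the other comparisons, with -0.26 and 0.013 against AA-CJ and 0.014 and 0.28 against CC. As gene means, M was -0.12 (SE 0.13, adjusted p = 0.630) and 0.15 (SE 0.13, adjusted p = 0.613).

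Il6, a cytokine that signals through gp130 (Il6st) and Stat3, had the lowest SE of the set, which rests on the spread between arrays, not between spots. On each array 9 of its 10 spots were used, with an SD of M over them of 0.0741 to 0.0966. Il6 was at 6.90 and 6.97 in AA-CJ, at 6.95 and 6.86 in CC, at 7.12 and 7.08 in CC-CJ of replicate 1 and at 6.97 and 6.98 in CC-CJ of replicate 2. All CC-CJ values were above both CC values, by a small margin. M against CC was 0.13 and 0.12, with a mean of 0.12 (SE 0.090, adjusted p = 0.525). Against AA-CJ it was 0.23 and -0.0047, with a mean of 0.11 (SE 0.090, adjusted p = 0.516) and a 95% interval from 0.930-fold to 1.25-fold.

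**Figure D3:**
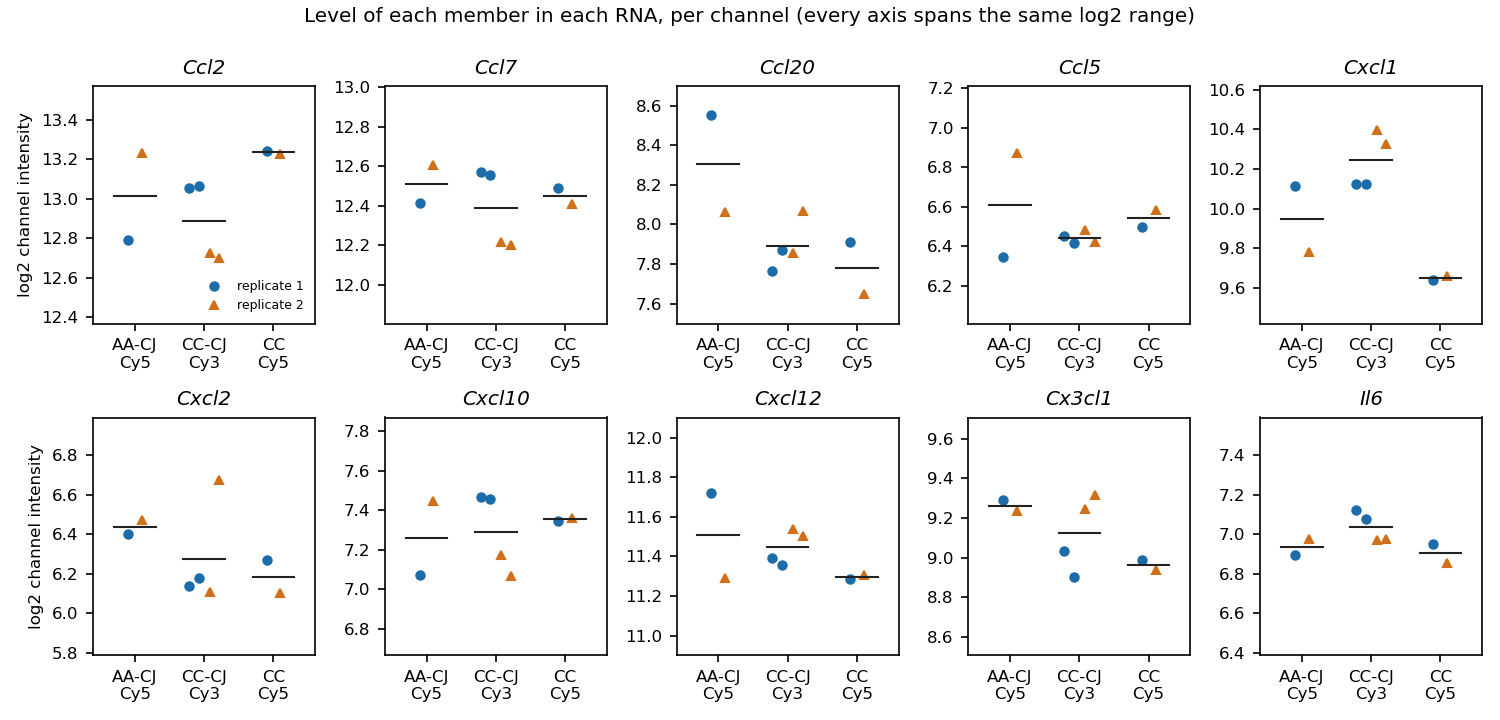
Log2 channel intensity (y axis) of the 10 genes in AA-CJ, CC-CJ and CC (x axis, with the dye), 1 point per channel (circles, replicate 1; triangles, replicate 2) and a line at the group mean. CC-CJ values of the same replicate number lie together for Ccl2, Ccl7, Cxcl1, Cxcl10 and Cxcl12, and for Ccl2, Cxcl1, Cxcl10 and Cxcl12 the 2 CC samples nearly coincide while the 2 AA-CJ samples lie apart.

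Replicate arrays differed widely for most of these genes. Between the 2 arrays of CC-CJ versus AA-CJ, M differed by 0.764 for Ccl2, 0.673 for Cxcl10, 0.610 for Cxcl1, 0.578 for Ccl20, 0.571 for Cxcl12, 0.545 for Ccl7 and 0.491 for Ccl5. These 7 of 9 genes were beyond the 90th percentile of all genes, which is 0.394, and the median gene differed by 0.143. Cx3cl1 and Il6, at 0.269 and 0.231, were above that median as well. M was higher on replicate 1 for Ccl2, Ccl7, Ccl5, Cxcl10 and Il6, and higher on replicate 2 for Ccl20, Cxcl1, Cxcl12 and Cx3cl1.

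Between the 2 arrays of CC-CJ versus CC, which also carry CC-CJ in Cy3, the differences of M were beyond the 90th percentile of 0.365 for 3 of 9 genes, Cx3cl1 at 0.470, Ccl20 at 0.462 and Cxcl10 at 0.401. The differences of Ccl2 and Ccl7 were 0.355 and 0.275. M had 1 sign on both arrays for 2 of 9 genes against AA-CJ, Ccl20 and Cxcl1, and for 65.6% of all genes. Against CC it did for 5 of 9 genes, Ccl2, Ccl5, Cxcl1, Cxcl12 and Il6, and for 65.1% of all genes. This measure was chosen after the values were seen. Beyond the 90th percentile against AA-CJ were 7 of 9 genes also with the authors' processed values, 6 with median centring and 2 with Agilent's log ratio, where the median gene differed by 0.280. Against CC the count was 1 with the authors' processed values, 1 with median centring and 2 with Agilent's log ratio. Without background subtraction it was 4 against CC and 7 against AA-CJ, and with an offset of 16 it was 3 and 7.

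**Figure D4:**
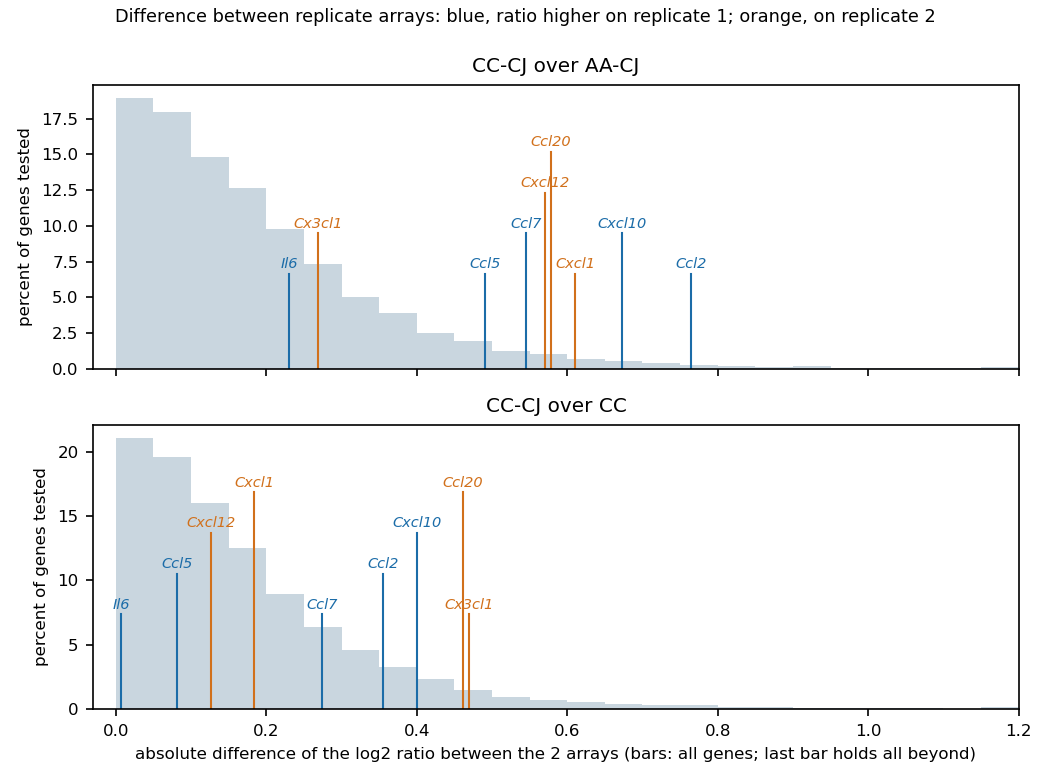
Absolute difference of M between the 2 arrays of a comparison (x axis, log2), as the percent of all genes tested (bars) with the 9 genes as labelled lines, blue where M was higher on replicate 1 and orange where it was higher on replicate 2. Against AA-CJ, 7 of the 9 lie in the right tail beyond 0.394, and against CC 3 of the 9 lie beyond 0.365.

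Other genes of these pathways were read from lists. Of 27 other chemokine ligands, 25 had a probe and 10 were tested, among them Ccl3, Ccl6, Ccl11, Ccl19 and Cxcl14; none passed an adjusted p of 0.05 in any comparison, and 6, 2 and 6 of 10 had an unadjusted p under 0.05 in limma against AA-CJ, against CC and for CC versus AA-CJ, where all genes gave 22.6%, 16.9% and 17.8%. Their median log2 ratio was -0.23, -0.043 and -0.35 in the same order, and that of all genes was -0.02, -0.02 and 0.0014. Ccl3 and Ccl6 were the 2 counted against CC, and Ccl6 was also in both counts of 6. Both genes passed the filter on dim signal through CC alone, so nothing is read from their being brighter there. Chemokine receptors were mostly not detected: of 20 with a probe, 17 were well above background on no array in any channel, Ccr2, Ccr6, Cxcr2, Cxcr3 and Cx3cr1 among them. These are receptors of Ccl2, Ccl20, Cxcl1, Cxcl10 and Cx3cl1. The 3 receptors tested were Cxcr4 and Ackr3, which bind Cxcl12, and Ccrl2; none passed, with an unadjusted p under 0.05 for 2, 2 and 0 of them in the same order, beside the same shares of all genes.

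Of 17 genes of the interleukin-6 family, its receptors and its signalling, 14 were tested, including Il6r, Il6st, Stat3 and Socs3. None passed in any comparison, and the unadjusted p was under 0.05 for 3, 4 and 1 of the 14, against 22.6%, 16.9% and 17.8% of all genes. Of 22 other inflammatory cytokines and receptors, 12 were tested and none passed, with 2, 1 and 1 at an unadjusted p under 0.05, against the same shares. Il1b and Tnf, the cytokines best known for inducing chemokines in astrocytes, were not well above background on any array, and neither were Ifng and Ifnb1. Their receptors Il1r1, Tnfrsf1a and Tnfrsf1b were tested, with M between -0.24 and 0.21 against AA-CJ and CC.

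Of the NF-kappaB pathway and its target genes, 14 of 16 with a probe were tested. Against AA-CJ 1 of 14 fell, and none passed in the other comparisons, where 3.09%, 2.35% and 2.65% of all genes were called in the same order. The unadjusted p in limma was under 0.05 for 3, 3 and 3 of the 14, against 22.6%, 16.9% and 17.8% of all genes. The gene called was Sod2, the mitochondrial superoxide dismutase, with M of -0.74 and -0.72 and a mean of -0.73 (SE 0.11, adjusted p = 0.0310). Of the interferon-response genes, 20 of 22 with a probe were tested and 1 of 20 fell against AA-CJ, with none in the other comparisons. The unadjusted p was under 0.05 for 6, 6 and 1 of the 20, and both counts stand beside the same shares of all genes. The gene called was Psmb9, a subunit of the immunoproteasome, with a mean M of -0.54 (adjusted p = 0.0324). Neither call held without either AA-CJ array, with adjusted p of 0.129 and 0.0820 for Sod2 and 0.119 and 0.110 for Psmb9, nor with Agilent's log ratio, with 0.113 and 0.158. The mean M in these fits was -0.72, -0.74 and -1.07 for Sod2 and -0.58, -0.49 and -0.56 for Psmb9. The median M against AA-CJ was -0.16 for the NF-kappaB list and 0.084 for the interferon list, against -0.02 for all genes.

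Markers of other cells moved between the RNAs. Of 9 microglia and macrophage markers tested, CC exceeded AA-CJ for 6 and CC-CJ for 6 past an adjusted p of 0.05 in limma. CC-CJ exceeded AA-CJ for 4, and C1qa, Trem2 and Tyrobp were in each count. Cd14, Cd68 and Csf1r passed in no comparison. Against AA-CJ, M was -0.19 for Cd14 and -0.079 for Cd68, and it was above 0 for the other markers tested. The summed linear signal of the 9 was 1362 and 1495 in AA-CJ, 1797 to 2237 in CC-CJ and 3716 and 3654 in CC. Itgam, of the same list, was not well above background on any array. Aif1, in both counts of 6, passed the filter on dim signal through CC alone. C1qa and Trem2 were not well above background in every AA-CJ sample. Of 10 neuron markers, CC exceeded AA-CJ for 6 and CC-CJ for 7 past the same threshold, and CC-CJ exceeded AA-CJ for 3. Snap25 and Rbfox3, counted in the 6 and the 7, passed the filter on dim signal through CC alone. Dcx was not well above background in every AA-CJ sample. The summed signal of the 10 was 8554 and 9084 in AA-CJ, 8086 to 8457 in CC-CJ and 18261 and 18766 in CC. This sum was higher in AA-CJ than in CC-CJ, unlike the 3 calls. Stmn2 and Nefl were below 0 against AA-CJ, with M of -0.27 and -0.19, and the others were above it. How much of the sum was neuronal RNA was not tested. Of 8 oligodendrocyte lineage markers, Sox10 and Mag passed at that threshold against CC, with M of -1.12 and -0.82, and Mag alone for CC versus AA-CJ, with a log2 ratio of 0.89; Mag passed the filter on dim signal through CC alone. Of 5 fibroblast and meningeal markers, Dcn and Col1a2 passed against CC, with M of -0.77 and -0.59, and Dcn alone for CC versus AA-CJ, with a log2 ratio of 0.66. Of the 8 astrocyte markers, Aqp4 alone passed, against AA-CJ, at an M of 0.51 (adjusted p = 0.0312), and neither of the 2 endothelial markers tested passed. No gene of the chemokine set passed the test in any of these comparisons. The part of these cells in the levels of the chemokines was not tested.

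**Figure D5:**
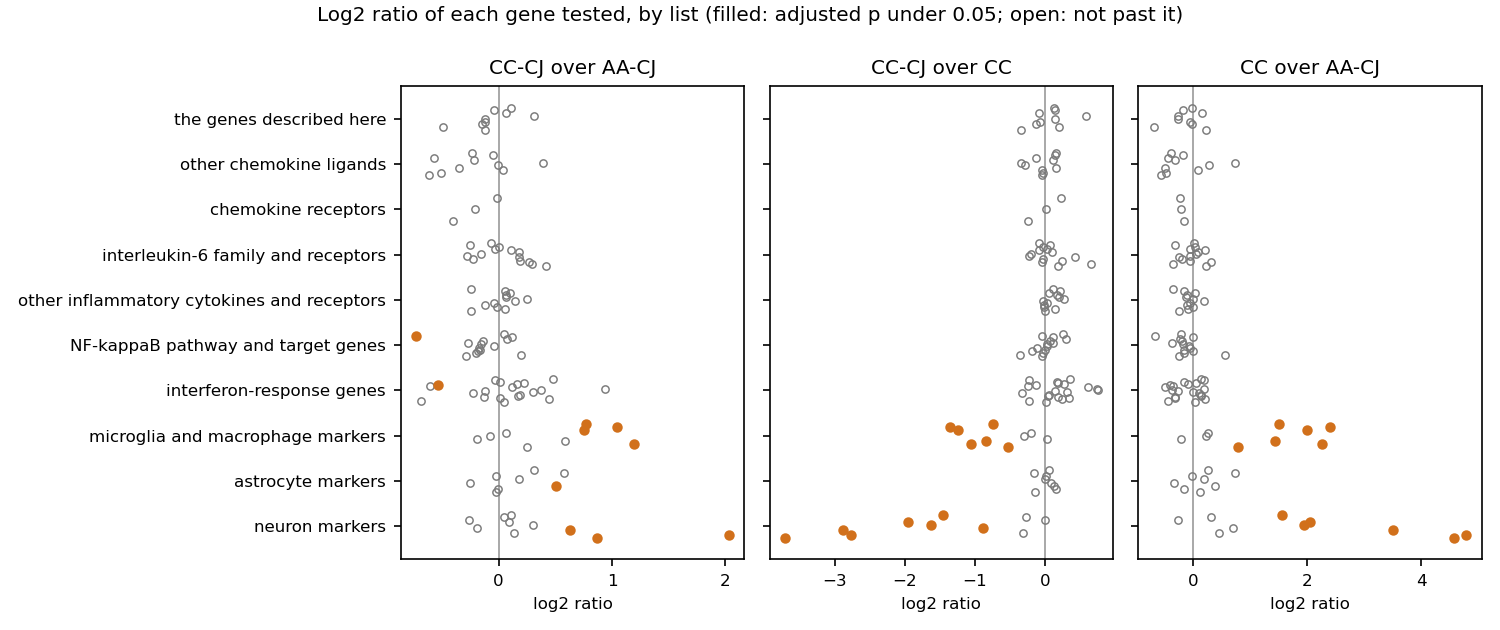
Log2 ratio (x axis, with its own range in each panel) of every gene tested in 10 lists (y axis) for the 3 comparisons, filled where the adjusted p is under 0.05 and open where it is not. In the chemokine, cytokine, NF-kappaB and interferon lists all points are open, apart from Sod2 and Psmb9 against AA-CJ. Open points reach 0.94 against AA-CJ, for Mx2 of the interferon list. The median of the other chemokine ligands is -0.23 against AA-CJ and -0.35 for CC versus AA-CJ. Many microglia and neuron markers are filled in the middle and right panels.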

How the data were processed

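Two-colour Agilent arrays were read. The authors deposited, for each array, spot intensities written by Feature Extraction 9.5.1.1, with Agilent's log ratio as log10 of Cy5 over Cy3. They also deposited a table of their processed values, taken here as log2 of Cy5 over Cy3. Turned to Cy3 over Cy5, these values correlated with the loess M used here at r of 0.900 to 0.952 per array over probes. That gives their direction and not the base of the log. All ratios were turned to Cy3 over Cy5.

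The background of the mean signals was corrected with normexp at an offset of 50, using limma 3.58.1 (R 4.3.3), and loess with a span of 0.3 normalized M per array. Control spots and outliers were dropped. A probe was kept (24863 of 41012) if all arrays of any 1 RNA showed it well above background, and a gene was the mean of its kept probes. Channel levels were taken after loess and Aquantile. Arrays of each comparison got a coefficient in lmFit, with 2 residual degrees of freedom and an eBayes prior of 4.72, and adjusted p-values are Benjamini-Hochberg over 21310 genes. Sequences are from RefSeq (GRCr8). The fit was tested on simulated data.

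Every one of the 10 genes is named; of the pathway lists, each gene past the threshold, and of the marker lists, counts with the genes a sentence turns on. Others were named after their values were seen. The genes and lists were chosen with earlier results of these data known. Alternatives covered background correction, offset, normalization, source of the values, filter, probe level, prior, arrays in the fit, replicate block, left-out arrays and the study's 2 SD criteria.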

Additional observations from a re-analysis of the deposited data

How the results depend on the processing

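The count of these genes past an adjusted p of 0.05, which was 0 in each comparison, stayed at 0 for CC versus AA-CJ under all alternatives run. For CC-CJ versus AA-CJ it was 6 with median centring in place of loess and 0 otherwise. For CC-CJ versus CC it was 7 with median centring. It was 1, Cxcl1, with the authors' processed values (0.76), with only the 2 arrays of the comparison and by the study's 2 SD rule. Leaving out an AA-CJ array gave the same fit of CC-CJ versus CC as using only its 2 arrays, and is not a separate alternative.

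Median centring leaves any dependence of the ratio on intensity in place, and whether such a dependence came from the dye was not tested. This setting put the median of all genes at -0.48 and -0.59, and the genes of the set called under it were all lower. It reversed M of Cxcl1 (-0.80), Cxcl10 (-0.36) and Il6 (-0.16) against AA-CJ, of Ccl20 (-0.55), Cxcl1 (-0.53), Cxcl12 (-1.06), Cx3cl1 (-0.63) and Il6 (-0.17) against CC, and of Il6 for CC versus AA-CJ (0.013). Other reversals were of values near 0, and the cause was not tested: Ccl5 for CC versus AA-CJ with Agilent's log ratio (0.55) and without background subtraction (0.032), and Ccl7 against CC with the authors' values (0.0096).

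Genes called in all, 658, 500 and 564 in the order CC-CJ versus AA-CJ, CC-CJ versus CC and CC versus AA-CJ, became 73, 268 and 247 with Agilent's log ratio. Median centring gave 13194 and 14300 when CC-CJ was set against AA-CJ and CC. CC-CJ versus AA-CJ had 332 with an offset of 16, 186 with an intensity trend in the prior and 1102 with only its own arrays. CC-CJ versus CC and CC versus AA-CJ had 287 and 348 with the strict filter. Leaving out 1 array gave 105 to 1102, 203 to 667 and 346 to 631.

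Leaving out 1 array at a time reversed M for some genes. Against AA-CJ it ranged from -0.50 to 0.26 for Ccl2, -0.39 to 0.15 for Ccl7, -0.39 to 0.10 for Ccl5, -0.27 to 0.40 for Cxcl10, -0.33 to 0.24 for Cxcl12, -0.26 to 0.012 for Cx3cl1 and -0.0047 to 0.23 for Il6. Against CC it ranged from -0.21 to 0.067 for Ccl7, -0.041 to 0.42 for Ccl20, -0.29 to 0.11 for Cxcl10 and -0.090 to 0.38 for Cx3cl1. For CC versus AA-CJ it ranged from -0.15 to 0.61 for Ccl2, -0.32 to 0.22 for Ccl7, -0.26 to 0.23 for Ccl5, -0.57 to 0.042 for Cxcl1, -0.18 to 0.49 for Cxcl10, -0.46 to 0.11 for Cxcl12 and -0.13 to 0.10 for Il6.

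With a replicate block, 163, 306 and 289 genes were called in all and 0 of the 9 in each comparison (lowest adjusted p of 0.0905, 0.112 and 0.0988); deviations of M of same-numbered arrays correlated at -0.11 over genes and those of their CC-CJ signals at 0.465, and 2 pairs do not settle a pairing. Under the block Sod2 and Psmb9 lost their calls (adjusted p of 0.0661 and 0.0808), as with an intensity trend in the prior (0.0578 and 0.0604), and Psmb9 also with an offset of 16 (0.0706). With the numbers crossed, an alternative added after seeing the data, 1502, 852 and 847 genes were called in all and 0 of the 9.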
